A study of Mus musculus with 2 samples.

Results

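The genes described are 45 genes of cholesterol and fatty acid metabolism, chosen by name as a list of pathway members. The list was drawn up with earlier results of these data known. Shares of all genes beside its counts are therefore a description, with no set test. All 45 listed symbols were found among the 22485 named genes of the arrays, through 72 features (array spots assigned to a gene). Mouse embryonic stem (ES) cells of the wild-type line V6.5 and Utx knockout (Utx KO) ES cells were compared before and after 48 h in 100 nM retinoic acid (RA). Utx is a demethylase of the repressive histone mark H3K27me3, encoded on the X chromosome. Untreated cells of both genotypes grew on gelatin in ES medium with leukaemia inhibitory factor (LIF), and the RA medium lacked LIF, so the effects of RA and of losing LIF cannot be told apart. The labels name V6.5 for the knockout cells too, and whether these are 1 clone is not given here. Each line was measured on 1 dual-colour array that set RA-treated RNA (Cy5) against untreated RNA (Cy3) of the same line.

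Values below are log2 ratios (RA-treated over untreated), averaged over a gene's features and given for V6.5 first and the knockout second. A value below 0 is read as lower after RA, which is the likely direction given the labelled dyes. Genes known to be induced by RA were positive in each line, Cyp26a1 with 3.54 and 4.27 and Rarb with 2.38 and 2.40. With 1 array a line, neither the response of a single line nor a difference between lines has a replicate check. A shared response was tested with limma over both arrays (n = 2 arrays), and "rose" and "fell" are used only for genes with a Benjamini-Hochberg adjusted p under 0.05 over all 22485 genes. Values after ± are limma's moderated standard errors, which lean on a variance pooled over all genes. Where both arrays agree, ± 0.07 is about the floor set by that variance and no measured precision of the gene itself. For scale, where a gene had 2 to 9 features, their SD was typically small (median 0.14 on each array). In bulk RNA, fewer cells of a type and less RNA per cell cannot be told apart.

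Cholesterol is built from acetyl-CoA through mevalonate and squalene, and fatty acids are built by acetyl-CoA carboxylase and fatty acid synthase and then desaturated or elongated. Genes of sterol synthesis are driven mainly by the transcription factor SREBP2 (Srebf2) and those of fatty acid synthesis by SREBP1 (Srebf1). Both are released from the endoplasmic reticulum when sterols are low, and Insig1 holds them back when sterols are high. Sterol excess acts through LXR receptors, which induce the efflux transporters Abca1 and Abcg1. Fatty acids are burned in mitochondria by beta-oxidation, which they enter through carnitine palmitoyltransferase 1.

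SREBP factors are known to act together with NF-Y, which binds the CCAAT box, so promoter sequences were read for 35 of the 45 members from RefSeq (build GRCm38.p6), as 300-base windows from 250 bases before to 50 bases after a start site. The sterol regulatory element was searched as TCACNCCAC and the CCAAT box as CCAAT, each on both strands. Of 12 sterol synthesis genes with a window, 12 held a CCAAT box (100%), against 10 of 23 other members (43.5%) and 41.1% of all 27025 genes. A match to TCACNCCAC was found in 1 of these 12 genes, Hmgcs1, and in 1.44% of all genes. Elements that differ from this string were not searched, so the other genes cannot be said to lack one. The GC box, searched as GGGCGG, was in 11 of the 12 (91.7%), in 14 of the 23 other members (60.9%) and in 38.2% of all genes. The E box CACGTG was in 3 of the 12, in 4 of the 23 other members (17.4%) and in 8.09% of all genes. The half-site AGGTCA repeated after 4 bases (the spacing of LXR elements) or after 5 bases (that of many RA receptor elements) was in 0 of the 35 members, and in 0.0148% and 0.0111% of all genes. Only exact copies of the half-site counted, which left almost no gene with a match, and looser forms were not searched. The 0 of 35 therefore cannot show whether members, Abca1 among them, hold LXR or RA receptor elements. Shares were not matched on base composition, a gene with several start sites counts once if any of its windows holds a match, and a match is no evidence of binding.

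Shown are the windows of Hmgcs1, Idi1 and Cyp51. These are the sterol synthesis genes with a match to TCACNCCAC or a fall in the shared test for which a window was given. Nsdhl, which has 4 CCAAT boxes, and Ebp, whose ratios went the other way, are shown too. Each is written 5′ to 3′ along the gene's strand, and capitals mark the CCAAT box (ATTGG on the other strand) and, in Hmgcs1, the sterol regulatory element TCACCCCAC. They lie at chr13:119690101-119690400 (plus strand), chr13:8885356-8885655 (plus), chr5:4104648-4104947 (minus), chrX:72918271-72918570 (plus) and chrX:8193463-8193762 (minus).
Hmgcs1: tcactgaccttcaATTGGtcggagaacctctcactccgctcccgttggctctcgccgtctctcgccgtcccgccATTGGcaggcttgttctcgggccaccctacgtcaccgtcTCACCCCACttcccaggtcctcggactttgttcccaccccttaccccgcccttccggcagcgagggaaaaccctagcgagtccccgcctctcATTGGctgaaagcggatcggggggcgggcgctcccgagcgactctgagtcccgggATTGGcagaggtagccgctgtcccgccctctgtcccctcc
Idi1: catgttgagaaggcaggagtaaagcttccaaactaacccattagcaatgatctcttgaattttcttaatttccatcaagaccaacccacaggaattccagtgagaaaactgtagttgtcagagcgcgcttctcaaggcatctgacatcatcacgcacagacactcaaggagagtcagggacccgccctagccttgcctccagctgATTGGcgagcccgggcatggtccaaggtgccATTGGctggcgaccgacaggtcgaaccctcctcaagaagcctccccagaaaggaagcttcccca
Cyp51: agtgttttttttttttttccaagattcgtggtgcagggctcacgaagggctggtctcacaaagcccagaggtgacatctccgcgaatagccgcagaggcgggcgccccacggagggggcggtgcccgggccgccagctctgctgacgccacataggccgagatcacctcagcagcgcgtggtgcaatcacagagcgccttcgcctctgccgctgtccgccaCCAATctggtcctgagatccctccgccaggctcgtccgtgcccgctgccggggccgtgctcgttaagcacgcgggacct
Nsdhl: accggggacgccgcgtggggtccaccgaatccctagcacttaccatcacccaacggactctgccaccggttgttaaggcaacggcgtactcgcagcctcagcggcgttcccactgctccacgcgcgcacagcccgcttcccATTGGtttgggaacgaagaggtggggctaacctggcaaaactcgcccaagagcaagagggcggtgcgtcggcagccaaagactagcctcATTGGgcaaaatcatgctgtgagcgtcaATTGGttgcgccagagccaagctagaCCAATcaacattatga
Ebp: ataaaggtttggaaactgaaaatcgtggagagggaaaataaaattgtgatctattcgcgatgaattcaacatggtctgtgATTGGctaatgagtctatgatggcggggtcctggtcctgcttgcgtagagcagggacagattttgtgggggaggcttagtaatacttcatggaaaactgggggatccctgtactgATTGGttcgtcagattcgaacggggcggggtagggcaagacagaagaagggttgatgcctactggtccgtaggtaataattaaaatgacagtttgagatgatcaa

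**Figure D1:**
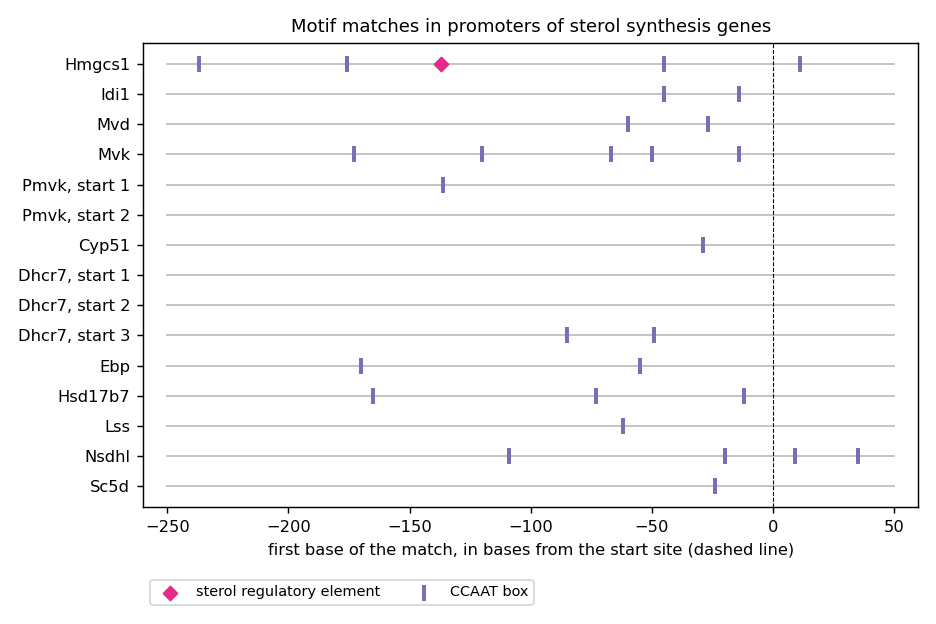
Positions of motif matches in the RefSeq promoter windows of 12 sterol synthesis genes. The x axis gives the first base of each match in bases from the start site. Bars are CCAAT boxes and the diamond is a match to the sterol regulatory element searched as TCACNCCAC. Each gene holds at least 1 CCAAT box in 1 of its windows, and a match to TCACNCCAC is in Hmgcs1 alone of these 12. Elements that differ from this string were not searched.

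Among the 45 genes, the response was mostly downward and moderate. In the shared test 11 fell and 2 rose, beside 7.93% of all genes that fell and 8.93% that rose, and 32 did not pass. The genes that fell were Abca1, Abcg1, Fabp3, Cpt1a, Cpt1b, Acadm, Acacb, Srebf2, Idi1, Sqle and Cyp51, and those that rose were Acaca and Cidec. The median of the members was -0.07 for V6.5 and -0.33 for the knockout, against -0.02 on both arrays over all genes. Both ratios were below 0 for 25 members (55.6%) and for 41.2% of all genes.

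**Figure D2:**
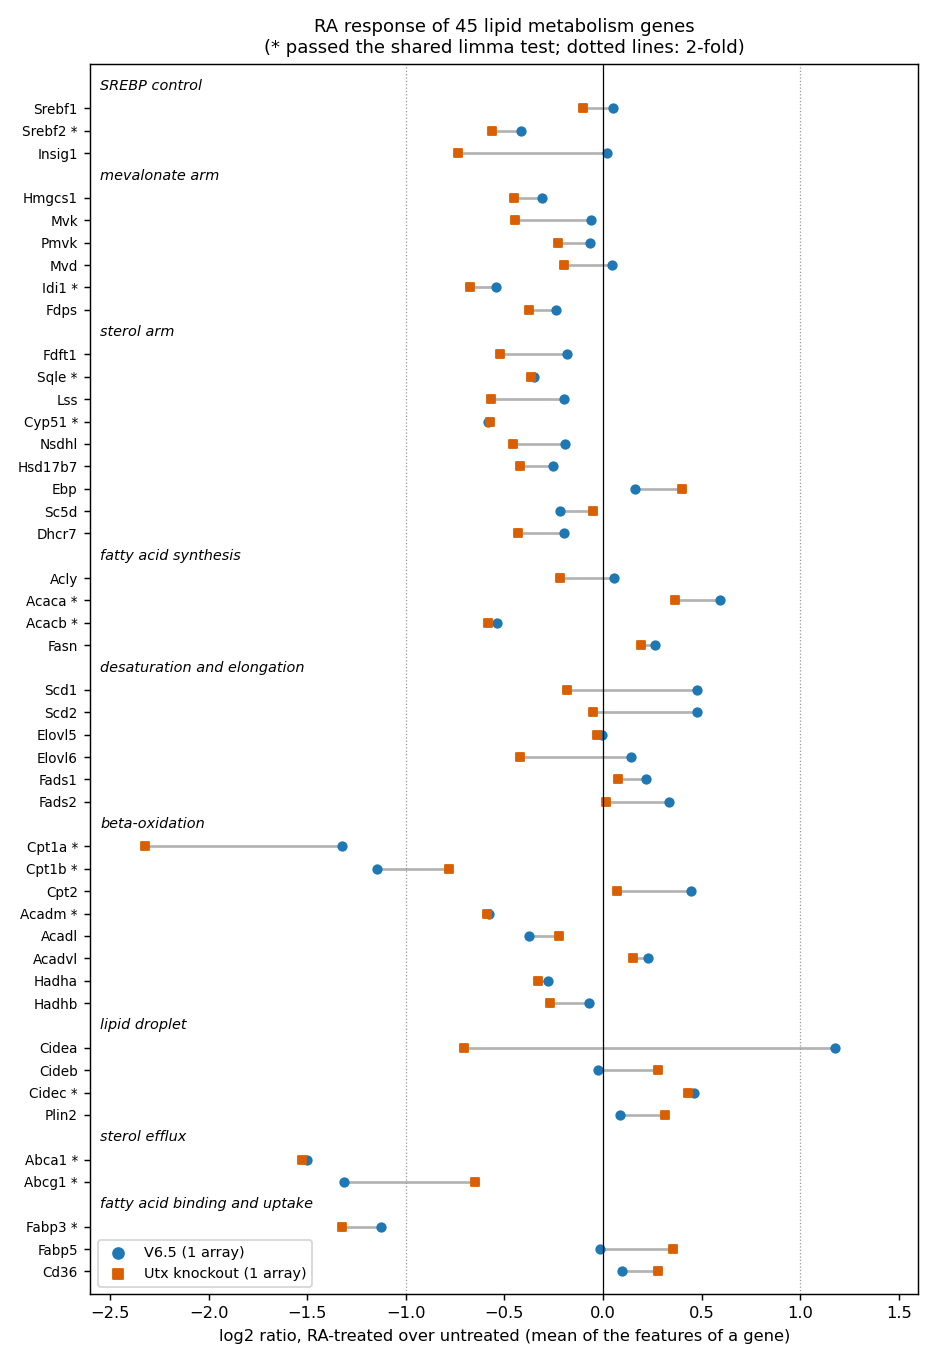
Log2 ratios (x axis, RA-treated over untreated) of the 45 genes by role, with V6.5 as circles and the Utx knockout as squares, 1 array each; asterisks mark genes that passed the shared limma test and dotted lines mark 2-fold. Abca1, Fabp3 and Cpt1a lie below -1 in both lines, and Cidea lies at 1.18 for V6.5 and -0.70 for the knockout.

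Sterol efflux held the lowest p of the list. Abca1, which moves cholesterol out of the cell to apolipoproteins, had ratios of -1.50 for V6.5 and -1.53 for the knockout, 2.84-fold and 2.88-fold lower after RA. It fell by 1.52 ± 0.07 on the log2 scale (adjusted p = 0.00746 in limma), and its ratios differed by 0.02 between lines. Abcg1, which exports sterol to lipoprotein particles, had -1.31 and -0.65. It fell too, to a mean of -0.98 ± 0.18 (adjusted p = 0.0413), being 2.48-fold lower in V6.5 and 1.57-fold lower in the knockout. Each of the pair rests on 1 feature. Of 16 other genes of sterol transport and oxysterol signalling, 3 rose and 1 fell. The rising genes included Abcg5 (0.92 and 1.28, from 1 feature), part of an exporter of plant sterols and cholesterol, Abcg4 (0.75 and 0.62) and the oxysterol-forming enzyme Cyp27a1 (0.39 and 0.46). Abcg8, from the same list, had 0.06 and 0.01 and did not pass. Npc2, which carries cholesterol in the lysosome, fell, with -0.49 and -0.44.

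Most sterol synthesis genes had ratios a little below 0 in both lines. Of its 15 genes 3 fell and 0 rose, while 10 were lower and 1 was higher at an unadjusted p under 0.05, where 17.9% of all genes were lower and 16.8% higher. On both arrays 13 of the 15 had a ratio below 0, and the group median was -0.20 for V6.5 and -0.43 for the knockout. No gene of the group reached 2-fold on either array.

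In the mevalonate arm, Idi1, the isomerase that makes the activated isoprene unit, had -0.54 and -0.67 and fell by 0.61 ± 0.08 (adjusted p = 0.0226). Hmgcs1, which makes HMG-CoA from acetyl-CoA units, had -0.31 and -0.45 and just missed the threshold (adjusted p = 0.0529). Fdps, which makes farnesyl diphosphate, had -0.24 and -0.38 (adjusted p = 0.0791). Among the kinases and the decarboxylase of the arm the V6.5 ratios were near 0. Mvk, the kinase of mevalonate, had -0.06 and -0.45, and its pair of V6.5 features stood on either side of 0, at -0.19 and 0.07. Pmvk, the next kinase, had -0.07 and -0.23, and the decarboxylase Mvd had 0.04 and -0.20.

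In the sterol arm, Cyp51, the lanosterol demethylase, had -0.58 and -0.57 and fell by 0.58 ± 0.07 (adjusted p = 0.0214). Sqle, the squalene epoxidase and a rate-controlling step, had -0.35 and -0.36 and fell by 0.36 ± 0.07 (adjusted p = 0.0491). The call of Sqle sits at the threshold: it was lost when each array was centred on its median (adjusted p = 0.0542) and when each feature was fitted on its own, and over the other gene-level alternatives without a fold bound its adjusted p was 0.0468 to 0.0493. Several enzymes did not pass although both ratios were below 0, the knockout ratio being the lower. They were the squalene synthase Fdft1 (-0.18 and -0.52), the lanosterol synthase Lss (-0.20 and -0.57), the sterol dehydrogenase Nsdhl (-0.19 and -0.46), the ketoreductase Hsd17b7 (-0.26 and -0.42) and Dhcr7, which acts last in the pathway (-0.20 and -0.43). Sc5d, the desaturase before Dhcr7, had -0.22 and -0.05. Ebp, the sterol isomerase, was the only one of the 15 with positive ratios on both arrays, 0.16 and 0.40 (adjusted p = 0.127). Its window above holds 2 CCAAT boxes, and a link between this motif and the response was not tested.

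Of the regulators, Srebf2 fell and the others did not pass. Srebf2 had -0.41 for V6.5 and -0.57 for the knockout, and each of its 2 features was below 0 on both arrays, between -0.32 and -0.64. Its mean was -0.49 ± 0.08 (adjusted p = 0.0342). Srebf1 had 0.05 and -0.10. Insig1, itself a target of SREBP, had 0.02 for V6.5 and -0.74 for the knockout, where it was 1.67-fold lower, with a mean of -0.36 ± 0.20 (adjusted p = 0.300 for a shared response). Of 12 other genes of sterol synthesis and SREBP control, 1 rose and 1 fell. Scap, which escorts SREBP to the Golgi, rose by 0.55 ± 0.08 (0.51 and 0.60; adjusted p = 0.0250), and Stard4, a cytosolic sterol carrier, fell by 0.41 ± 0.08 (-0.35 and -0.48; adjusted p = 0.0437).

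Fatty acid synthesis moved in both directions, with opposite calls for the 2 acetyl-CoA carboxylases. Acaca, the cytosolic form that makes malonyl-CoA for synthesis, had 0.59 for V6.5 and 0.36 for the knockout and rose by 0.48 ± 0.09 (adjusted p = 0.0441). Its 4 features spread little in V6.5, from 0.50 to 0.68. In the knockout 2 of them were at 0.66 and 0.71 and the other 2 at 0.11 and -0.02, so the knockout mean joins unlike values. Acacb, the mitochondrial form whose malonyl-CoA inhibits carnitine palmitoyltransferase 1, had -0.54 and -0.59 and fell by 0.56 ± 0.07 (adjusted p = 0.0226). Fasn, the fatty acid synthase, had 0.26 and 0.19 (adjusted p = 0.121). Acly, which supplies cytosolic acetyl-CoA from citrate, had 0.06 and -0.22.

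None of the 6 desaturases and elongases passed in limma, and 0 did at an unadjusted p under 0.05. Scd1 and Scd2, which make monounsaturated fatty acids, both had 0.48 in V6.5, and had -0.18 and -0.05 in the knockout. The mean of Scd1 was 0.15 ± 0.18 (adjusted p = 0.616). They are close paralogs, and whether their probes share signal was not tested. Elovl6, which elongates palmitate, had 0.14 and -0.42. The desaturases of polyunsaturated fatty acids had positive ratios in V6.5 and ratios near 0 in the knockout: Fads1 had 0.22 and 0.08, and Fads2 had 0.34 and 0.02. The knockout features of Fads2 stood at -0.003 and 0.04. Elovl5, the elongase of polyunsaturated chains, had -0.01 and -0.03.

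Over 6 lists of other genes of these pathways, 119 genes in all, 10 rose (8.40%) and 13 fell (10.9%), near the 8.93% and 7.93% of all genes, so the counts are not a result about those lists. Of 28 other genes of fatty acid and triglyceride synthesis, 3 rose and 5 fell. Mlxipl, which encodes the carbohydrate-response factor ChREBP, rose by 0.98 ± 0.07, the elongase of very long chains Elovl4 by 0.87 ± 0.09 and Dgat2, which closes triglyceride synthesis, by 0.84 ± 0.09. Thrsp, a lipogenic gene, fell by 0.97 ± 0.08, the phosphatidate phosphatase Lpin1 by 0.88 ± 0.07 and the acyltransferase Agpat2 by 0.54 ± 0.09. Their adjusted p ran from 0.0112 (Mlxipl) to 0.0322 (Agpat2) in limma. Scd3, a further stearoyl-CoA desaturase, had 0.63 for V6.5 and 0.05 for the knockout and did not pass.

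Beta-oxidation held the lowest ratio of the list. Cpt1a, the rate-controlling carnitine palmitoyltransferase of the outer mitochondrial membrane, had -1.32 for V6.5 and -2.32 for the knockout, 2.50-fold and 5.00-fold lower after RA. Its 11 features ran from -1.47 to -1.18 in V6.5 and from -2.46 to -2.21 in the knockout. All 11 are annotated to the same sequence record, and whether they are copies of 1 probe is not known here. The features of 1 array share the hybridised RNA and are no replicates of the line. Cpt1a fell by 1.82 ± 0.26 (adjusted p = 0.0266). Cpt1b, the muscle-type form, had -1.15 and -0.78 and fell by 0.96 ± 0.12 (adjusted p = 0.0204). Here the knockout ratio was the higher, in both of its features.

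Of 6 inner membrane and matrix enzymes, Acadm fell and 5 did not pass. Acadm, the medium-chain acyl-CoA dehydrogenase, had -0.58 and -0.59 and fell by 0.58 ± 0.07 (adjusted p = 0.0210). Hadha, of the trifunctional protein, had -0.28 and -0.33 (adjusted p = 0.0667), and its partner subunit Hadhb had -0.07 and -0.27. The long-chain dehydrogenase Acadl had -0.37 and -0.23 (adjusted p = 0.0849), while the very-long-chain enzyme Acadvl had 0.23 and 0.15. Cpt2, which acts after Cpt1a on the inner membrane, had 0.45 and 0.07 (adjusted p = 0.218). Of 32 other genes of fatty acid oxidation, 2 rose and 2 fell. Ppargc1b, a coactivator of mitochondrial genes, fell by 0.91 ± 0.09 and the short-chain dehydrogenase Acads by 0.45 ± 0.09 (adjusted p = 0.0156 and 0.0471). The peroxisomal enzyme Ehhadh rose by 0.72 ± 0.13 and Acad12 by 0.51 ± 0.07 (adjusted p = 0.0403 and 0.0266).

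**Figure D3:**
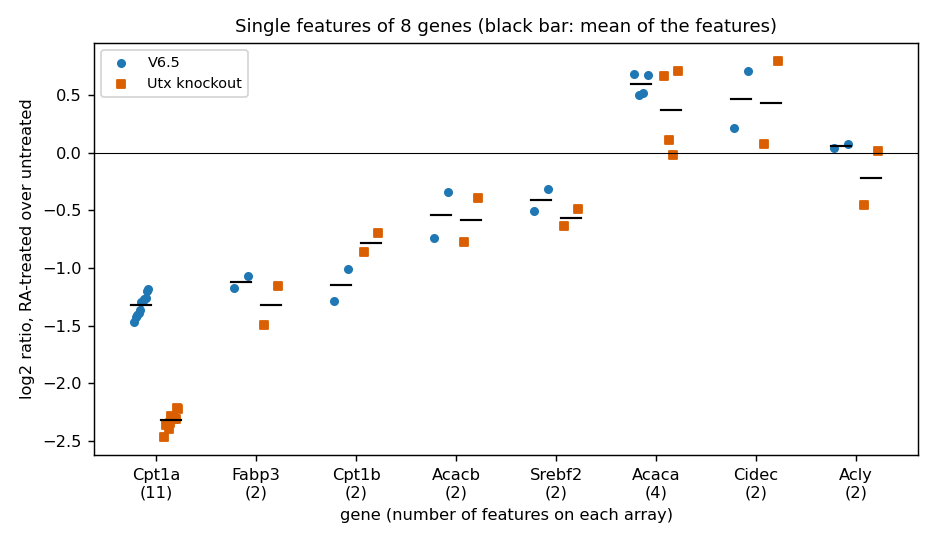
Log2 ratios (y axis, RA-treated over untreated) of the single features of 8 genes, with V6.5 as circles, the Utx knockout as squares and the mean of the features as a bar. The 11 Cpt1a features, all of the same sequence record, lie between -2.46 and -2.21 in the knockout. In the knockout 2 of the 4 Acaca features fall apart from the others.

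Fatty acid carriers differed among themselves. Fabp3, a cytosolic carrier best known from heart muscle, had -1.12 for V6.5 and -1.33 for the knockout, 2.18-fold and 2.51-fold lower, and fell by 1.23 ± 0.09 (adjusted p = 0.0106). Fabp5, the epidermal form, had -0.01 and 0.35, and the uptake receptor Cd36 had 0.09 and 0.28; neither passed (adjusted p = 0.379 and 0.220). Of 17 other genes of fatty acid binding and uptake, 1 rose and 2 fell. Lpl, the lipase that frees fatty acids from lipoproteins, rose by 1.03 ± 0.13 (adjusted p = 0.0211). Fabp4, the adipocyte form, had -1.17 and -1.84 and fell to a mean of -1.50 ± 0.18 (adjusted p = 0.0206), and the bile acid and fatty acid ligase Slc27a5 fell by 0.88 ± 0.07 (adjusted p = 0.0123). The ligase Acsl5 (-0.13 and 0.62) and the transport protein Slc27a3 (0.17 and 0.91) had the largest differences between lines of that list, and neither passed.

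Lipid droplet genes were higher or near 0, apart from Cidea in the knockout. Cidec, which fuses lipid droplets, had 0.46 and 0.43 and rose by 0.45 ± 0.07 (adjusted p = 0.0332). Its 2 features disagreed in size on both arrays, with 0.21 and 0.71 in V6.5 and 0.07 and 0.79 in the knockout. Cidea, of the same family, was 2.26-fold higher in V6.5 and 1.63-fold lower in the knockout, with ratios of 1.18 and -0.70 from 1 feature and a mean of 0.24 ± 0.48 (adjusted p = 0.770). Cideb, the family member known from liver, had -0.02 and 0.28, and the droplet coat protein Plin2 had 0.09 and 0.31. Of 14 other droplet and lipolysis genes, 0 rose and 2 fell in limma, with 1 higher and 2 lower at an unadjusted p under 0.05 (16.8% and 17.9% of all genes). The coat protein Plin3 fell by 0.91 ± 0.13 and Pnpla3 by 0.59 ± 0.11 (adjusted p = 0.0281 and 0.0408).

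Past 2-fold, with no test, V6.5 had 1 of the 45 members higher (Cidea) and 5 lower (Abca1, Cpt1a, Abcg1, Cpt1b and Fabp3), beside 2.52% and 1.59% of all genes. The knockout had 0 higher and 3 lower (Cpt1a, Abca1 and Fabp3), beside 2.92% and 1.65% of all genes. Abca1, Cpt1a and Fabp3 were thus lower by that margin in both lines.

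The second comparison sets the response without Utx against that with it, and has no test. The knockout ratio was below the V6.5 ratio for 35 of the 45 members (77.8%) and for 49.3% of all genes, with a median difference of -0.14 against 0.00. It was lower for 12 of 15 sterol synthesis genes, where the median difference was -0.16 and the range -0.39 (Mvk) to 0.24 (Ebp). It was lower for all 10 genes of fatty acid synthesis, desaturation and elongation, with a median difference of -0.25. Some of these differences were near 0. Those of Elovl5 (-0.03), Acacb (-0.05) and Fasn (-0.07) were smaller than the median SD of the difference between features (0.11, genes with 2 to 9 features). Single features of Acaca differed by -0.53 to 0.03. The counts of lower knockout ratios were the same with the median of the features, with arrays centred on their median and with arrays scaled alike. Those settings could hardly change them. Of the 45 members 29 have 1 feature and 14 have 2, for which the median is the mean. The arrays also had close medians (-0.0188 and -0.0195) and median absolute deviations (0.168 and 0.169) over all genes. Over the 6 lists of other genes of these pathways, the share with a lower knockout ratio ran from 41.7% to 64.3%. It was 13 of 28 (46.4%) for fatty acid and triglyceride synthesis and 5 of 12 (41.7%) for sterol synthesis and SREBP control. The pattern of the members was thus not seen in those 2 lists. Genes within a pathway share the same pair of arrays, so the counts have no replicate behind them.

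Single differences of at least 1.5-fold were seen for 4 members below V6.5 and 1 above it, beside 1.88% and 2.50% of all genes. Those below were Cidea (a difference of -1.88), Cpt1a (-1.001), Insig1 (-0.76) and Scd1 (-0.66), and Abcg1 stood above at 0.66. Over the 11 features of Cpt1a, all of the same sequence record, the difference ran from -1.05 to -0.94. The other 4 rest on 1 feature each, so their feature spread is unknown. At the other end, the differences were 0.01 for Cyp51, -0.01 for Acadm, -0.02 for Sqle and -0.02 for Abca1.

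**Figure D4:**
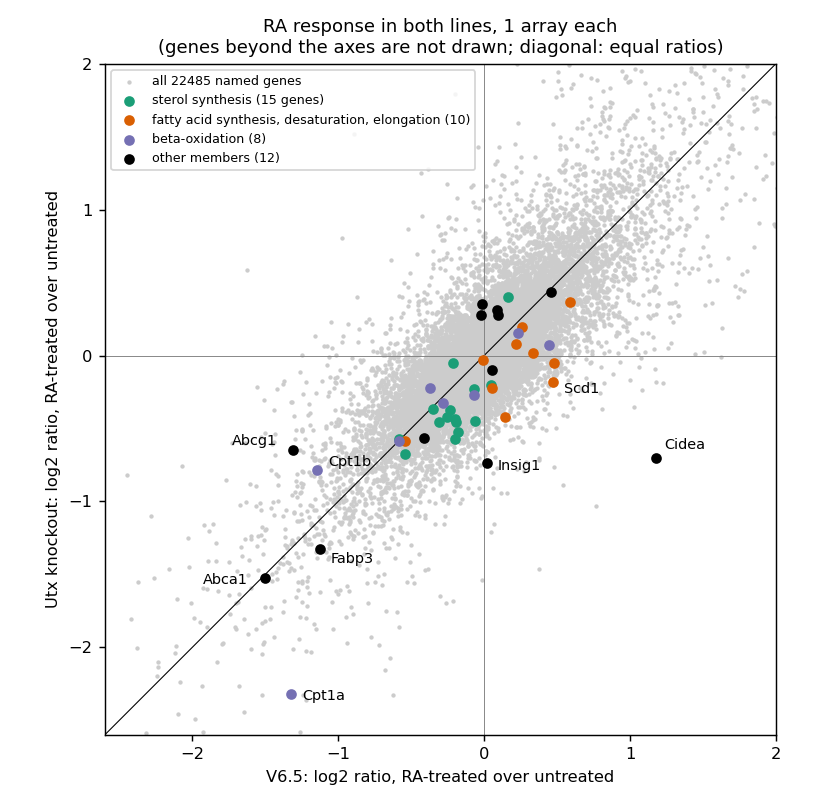
Log2 ratios (RA-treated over untreated) in V6.5 (x axis) and the Utx knockout (y axis), 1 array each, with all 22485 named genes in grey and the 45 members in colour by role. Most sterol synthesis genes lie below 0 on both axes and under the diagonal of equal ratios, and Cidea is the member farthest from the diagonal.

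**Figure D5:**
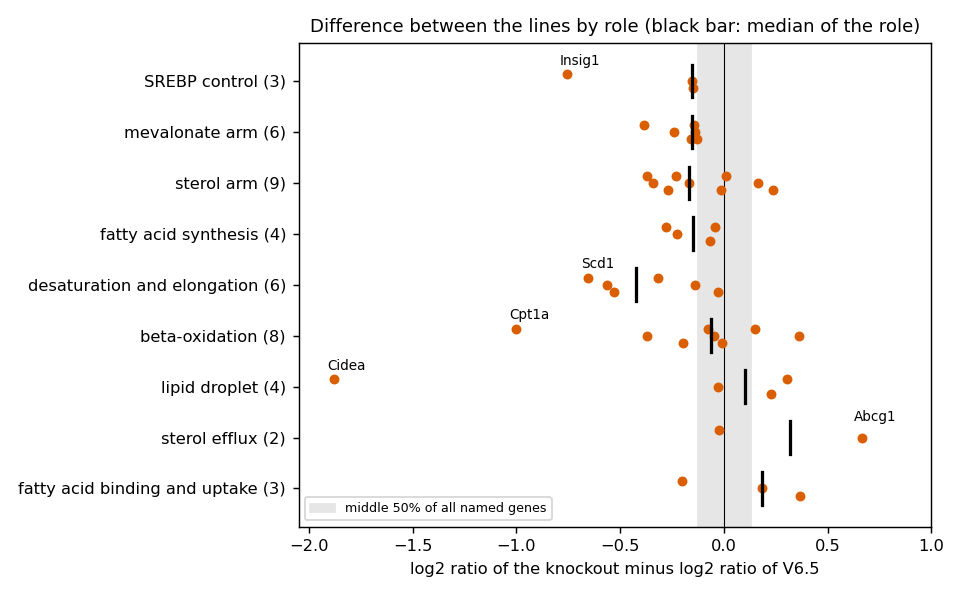
Knockout ratio minus V6.5 ratio (x axis, log2) of each member by role, with the role's median as a bar and the middle 50% of all genes shaded. Every gene of SREBP control, the mevalonate arm, fatty acid synthesis and desaturation and elongation lies below 0, while Abcg1 is at 0.66.

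Markers of cell types moved on the same arrays, as ratios only, since spot intensities were not used and levels are unknown. Of 12 fibroblast markers 9 fell and 0 rose in limma (also 9 and 0 at an unadjusted p under 0.05, where 17.9% of all genes were lower and 16.8% higher), with ratios of -1.95 to 0.05 in V6.5 and -2.63 to 0.32 in the knockout. Of 10 pluripotency markers 2 fell (Klf4 and Pou5f1) and 0 rose in limma, and 8 were lower and 0 higher at an unadjusted p under 0.05, with ranges of -1.65 to 0.29 and -2.44 to -0.16. Of 15 visceral endoderm markers 1 rose (Rbp4) and 1 fell (Apoa2), and 5 were higher and 1 lower at an unadjusted p under 0.05, with ranges of -0.67 to 1.05 and -0.62 to 3.53. Of 8 adipocyte markers 2 fell (Fabp4 and Ucp1) and 0 rose in limma, with the same counts at an unadjusted p under 0.05 and Adipoq at 0.11 and -0.13. The part of such cells in the fall of Abca1, Cpt1a, Fabp3 or the sterol genes was not tested.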

How the data were processed

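RNA of 2 ES cell lines was measured on 2 dual-colour Agilent arrays. The deposited values are log2 ratios, centred on the mean of each array; the log base was inferred from their range. Per the submitters' processing notes limma was used, with version and role not given, and background correction, within-array normalization and genome build are among what the sources used here leave unstated. The deposited table has 44397 features, of which 33026 had 1 gene symbol in the platform annotation and 11371 none here.

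Features were averaged per gene. The shared RA response was tested with limma 3.58.1 (R 4.3.3), an intercept over both arrays with eBayes, 1 residual and 2.98 prior degrees of freedom, two-sided, Benjamini-Hochberg adjustment over 22485 genes and a threshold of 0.05. It treats the lines as 2 samples of 1 response, so its p-values measure the spread between these arrays only, which may be technical. A dye bias is part of every ratio, as no dye swap was used. The step was tested on simulated data. Single lines and their difference were described at 2-fold and 1.5-fold without a test. The number of arrays limits the precision.

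The members and lists were chosen with earlier results of these data known. Values are given for all members, with standard errors and adjusted p for those that passed, reached 2-fold on an array or differed by 1.5-fold between lines. Of each wider list up to 3 called genes in each direction and up to 2 that differed between lines are named, and Abcg8 is given beside Abcg5. Promoters came from RefSeq (GRCm38.p6). Python 3.11.15, numpy 2.4.6, pandas 2.3.3 and matplotlib 3.10.9 were used. Alternatives were the median of the features, median centring, equal array scale, robust eBayes, treat against 1.5-fold and single features.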

Additional observations from a re-analysis of the deposited data

Results flagged for a closer look

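Ratios of opposite sign in the 2 lines, each larger than the median SD between features on its array, were seen for 3 of the 45 members (6.67%) and for 2.43% of all genes. The differences (knockout minus V6.5) were -1.88 for Cidea, -0.66 for Scd1 and -0.56 for Elovl6. Each rests on 1 feature and 1 array a line, and the difference was not tested.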

How the results depend on the processing

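Of the 13 members that passed, only Acaca (4 features) and Cpt1a (11 features) have more than 2. The median of the features could thus change the ratios of these alone. All 13 kept their call with that median and with robust eBayes. With median centring 12 did (Sqle was lost). The same 12 did with each feature fitted on its own (Sqle again), where a gene kept its call if any 1 of its features passed. That setting thus does not show that all features of a gene bear out its call. With arrays scaled to the same spread all 13 did and Hmgcs1 was added (adjusted p = 0.0497 in limma, 0.0526 to 0.0579 over the other alternatives without a fold bound). Against 1.5-fold with treat, 0 members rose and 1 fell, Abca1 (0 higher and 5 lower at an unadjusted p under 0.05); this test asks for a larger change, and across all genes 196 rose and 97 fell. With a 1.5-fold bound in place of 2-fold, 2 members were higher and 5 lower in V6.5 (6.69% and 5.36% of all genes), 0 were higher and 10 lower in the knockout (7.28% and 5.06%), and 1 stood above and 4 below in the difference between lines. At 2-fold 2 members stood below in that difference, Cidea and Cpt1a, and 1 did with median centring and 1 with equal array scale, since Cpt1a lies at the bound. No paired analysis was possible because each line has 1 array, and leaving out an array leaves no test. Spot intensities were not used, so signal over background is unknown.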
